A study of Mus musculus with 2 samples.

Results

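The genes of the microRNA pathway carried 216 of the 160430 genome positions that 10 computational tools listed as N6-methyladenosine (m6A) sites in mouse embryonic stem cells. The set was chosen by name and held 9 genes: Lin28a and Trim71, Drosha and Dgcr8, Xpo5, Dicer1, Ago1, Ago2 and Tnrc6a. A position was counted where it lay within an annotated exon of such a gene on the same strand. Of the 216 positions, 163 were listed in wild-type (WT) cells or in a comparison of WT with knockout cells, out of 129045 in the series. In the knockout (KO), 129 were listed, out of 107577. There were 76 positions in both sets, 87 outside the KO lists and 53 in the KO lists only. Listed positions fell in 8 of the 9 genes. Lin28a had no position in any list as used here, and it is not described further.

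MicroRNAs are cut out of nuclear transcripts by the Microprocessor, made of the RNase Drosha and its RNA-binding partner Dgcr8. Exportin-5, the product of Xpo5, carries the hairpins to the cytoplasm, where Dicer cuts them and Argonaute proteins hold the mature strand and recruit GW182 proteins such as Tnrc6a to silence targets. In embryonic stem cells Lin28a blocks the maturation of let-7, and Trim71, also called Lin41, is a known let-7 target. The methyltransferase Mettl3 places m6A on mRNA in RRACH contexts (R = A or G, H = A, C or T), and m6A has also been described as a mark on primary microRNAs.

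Poly(A) RNA of mouse 129 embryonic stem cells and of their Mettl3 KO line was read as native RNA on nanopores, with 1 library per condition. The KO line carries resistance genes in place of exons 5 to 7 of Mettl3 on both alleles and was picked as colonies, so it stands for cells grown from few founders. ELIGOS, Epinano, m6Anet, MINES, Nanom6A, Tombo and xPore had a WT and a KO list each, and DiffErr, DRUMMER and Nanocompore had 1 list each from the comparison of the libraries. The paper counts xPore too among the tools that require a control sample. Its lists are given per library, so it is not among the comparison lists here. A list states where a site was called, without a score, a methylation level or a read number. Per the study's methods a position needed a minimum number of reads, but the depth behind each one is otherwise unknown, and a gene read less often cannot be told apart from a gene methylated less often. With 1 library per condition no test between conditions was possible, and intervals around shares are 95% Wilson intervals that cover counting error only and take positions as independent, although positions of a gene share reads.

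The labels were checked first. Within exons 5 to 7 of Mettl3, WT had 2 listed positions and KO had 0. All 10 stem cell markers examined, Pou5f1, Nanog and Sox2 among them, had positions in both libraries. Together they had 246 WT or comparison and 187 KO positions, with 7 genes listed more in WT, 0 more in KO and 3 equal. Of 10 markers of other cell types, Sox17 had 12 positions in WT and 0 in KO, Eomes had 3 and 0, Nes had 3 and 0, and Col1a1 had 0 in WT and 3 in KO. The other 6, T, Gata4, Gata6, Cdx2, Pax6 and Foxa2, had none in either library, and whether the makeup of the cultures had a part in any result was not tested.

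The sequences below are those of the positions with the highest tool support in each gene, since the rest of the account turns on them. Each is a 21-base window of the GRCm38 genome read 5′ to 3′ on the gene's strand, with the 5-mer around the listed adenine in capitals. Support counts the tools, of 10, with a WT or comparison call at a position. At most 3 per gene are shown, the first along the transcript where support was tied. Of the 16 positions shown, 10 stood in GGACT and 6 in GGACA. Dicer1 had a further 3 positions with the same support, of which the position at nucleotide 4598 stood in AGACA, the position at nucleotide 5026 in GGACC, and the position at nucleotide 5138 in AGACT.
Trim71, 3′UTR, chr9:114509132-114509152, minus strand: gttacataGGACTggggcttt
Trim71, 3′UTR, chr9:114508394-114508414, minus strand: cattatcaGGACTgttaactt
Trim71, 3′UTR, chr9:114507195-114507215, minus strand: gtctctttGGACTttaaaagt
Drosha, exon 4, chr15:12834212-12834232, plus strand: cacctcccGGACAaggcactt
Drosha, exon 32, chr15:12926265-12926285, plus strand: gaccctgaGGACAgaagggaa
Dgcr8, exon 2, chr16:18284487-18284507, minus strand: gtctcgacGGACTtgtgcatg
Dgcr8, exon 2, chr16:18284236-18284256, minus strand: gtggtgatGGACAgtccgaac
Xpo5, exon 32, chr17:46242221-46242241, plus strand: gaagtgctGGACAgtgaggag
Xpo5, exon 32, chr17:46242237-46242257, plus strand: aggagggtGGACTggccacca
Dicer1, exon 21, chr12:104702615-104702635, minus strand: gacaggatGGACTctgagcag
Dicer1, exon 21, chr12:104702577-104702597, minus strand: ctcctcaaGGACTcttggccc
Dicer1, exon 21, chr12:104702557-104702577, minus strand: ccaatccgGGACTgattctcc
Ago1, 3′UTR, chr4:126438006-126438026, minus strand: tctggactGGACTgtcctttg
Ago2, 3′UTR, chr15:73100126-73100146, minus strand: acatatggGGACAgaaattgg
Tnrc6a, exon 17, chr7:123184230-123184250, plus strand: acaacagtGGACAgcatgtct
Tnrc6a, exon 24, chr7:123192738-123192758, plus strand: ctccagccGGACTgatgtcaa

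The genes differed in how densely they were listed. Per 100 RRACH motifs of the transcript, Drosha had 39.7 WT or comparison positions, Xpo5 38.2 and Dgcr8 34.5. Dicer1 followed with 18.8, Ago1 with 15.2 and Ago2 with 11.8, and Trim71 with 7.48 and Tnrc6a with 6.5 were lowest. The transcripts of the series had 28.4. In KO the densities were 38.4 for Drosha, 27.0 for Xpo5, 22.4 for Dgcr8 and 15.0 for Ago2, and between 1.87 (Trim71) and 12.8 (Dicer1) for the other 4. With all lists, Drosha, Xpo5 and Dgcr8 thus came first in both libraries, and without replicates no error can be put on the gaps between neighbours. Without the Tombo lists, WT or comparison positions were 22 on 89 motifs in Xpo5 and 14 on 73 in Drosha. They were 17 on 149 in Dicer1 and 6 on 58 in Dgcr8, so Xpo5 passed Drosha and Dgcr8 fell below Dicer1. In KO, Drosha (15), Xpo5 (9) and Dgcr8 (4) still came first per motif. In plain counts, Xpo5 (34), Drosha (29) and Dicer1 (28) had more WT or comparison positions than at least 92.0% of the 9803 genes with such a position, whose median was 11. Trim71 and Tnrc6a, with 8 each, had more than 30.7%.

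**Figure D1:**
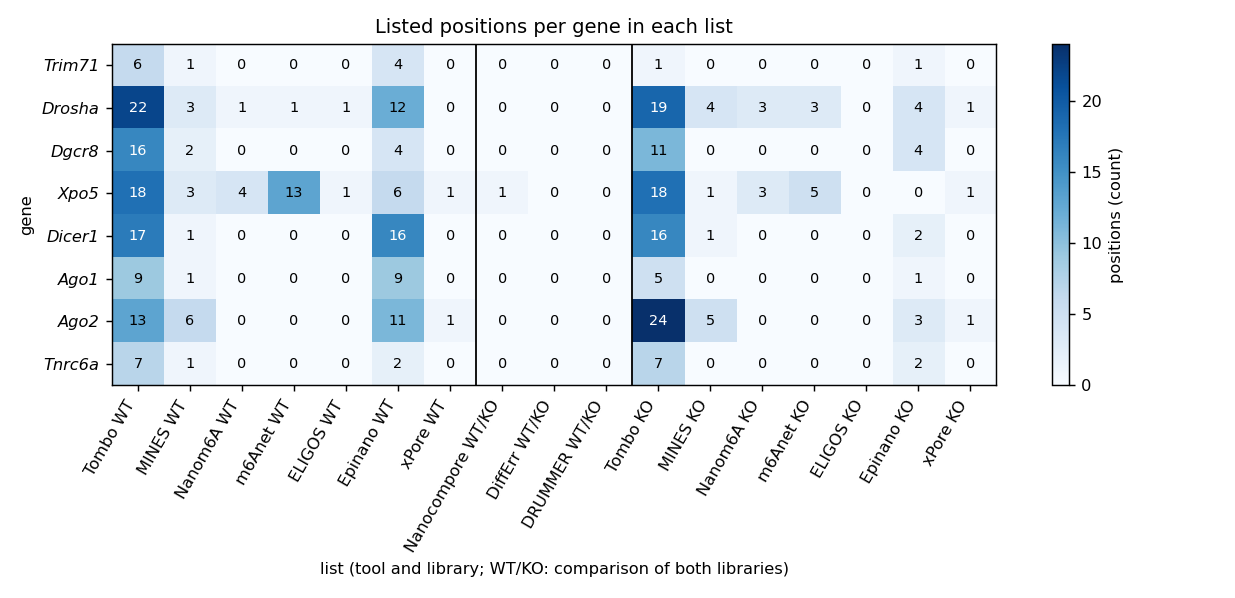
Number of listed positions for each of the 8 genes (rows) in each of the 17 lists (columns), with WT lists at the left, the comparison lists in the middle and KO lists at the right. Tombo and Epinano fill most of the WT part, Nanom6A and m6Anet entries stand only in the Drosha and Xpo5 rows, and Ago2 has 13 Tombo positions in WT and 24 in KO.

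Trim71 encodes a ubiquitin ligase and RNA-binding protein of early embryos. It lies on chr9:114507133-114564369, and its transcript of 9332 nt ends in a single exon of 6964 nt that holds the end of the coding sequence and the whole 3′UTR of 5512 nt. All 8 WT positions and both KO positions were in this 3′UTR, from nucleotide 6843 onwards, while its 19 coding RRACH motifs and the 3′UTR before that nucleotide carried none. Of 6547 genes with at least 8 WT or comparison positions, 3.22% had all of them in the 3′UTR. Tombo listed 6 of the 8 WT positions, Epinano 4 and MINES 1. Only the position 3845 nt after the stop codon, a Tombo call, was also listed in KO. The other KO position, listed by Epinano 5421 nt after the stop codon, lay 21 nt upstream of a GGACT that Tombo and Epinano listed in WT only.

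Drosha, on chr15:12824815-12935291, was the gene in which the libraries shared most positions. Its transcript has 35 exons and 4570 nt, and listed positions ran from nucleotide 118 to 4521 with no gap longer than 385 nt. There were 29 positions in WT, 28 in KO and 23 in both. Any tool in KO thus listed 79.3% of the WT positions (61.6 to 90.2%, n = 29), against 59.0% over the series. Tombo repeated 18 of its 22 WT calls in KO (81.8%) and Epinano 4 of 12 (33.3%). Without the Tombo lists the share in KO was 57.1% (32.6 to 78.6%, n = 14), against 47.0% over the series, and KO had 15 positions to 14 in WT. The 2 positions with most support, GGACA in exon 4 and in exon 32, were listed in WT by Tombo, MINES and Epinano and in KO by Tombo and MINES. Only the Epinano call of each was absent from the KO lists. Of the WT positions, 6 had no KO call, among them neighbouring Epinano calls in exon 4 (GAACT and AGACT, 36 nt apart) and an m6Anet call 40 nt after the stop codon.

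Dgcr8, on chr16:18253948-18289246, showed a split along the transcript. Exon 2, an internal exon of 1000 nt with the end of the 5′UTR and the first part of the coding sequence, held 8 WT positions among 13 RRACH motifs and no KO position. From exon 3 to the 3′ end there were 12 WT and 13 KO positions, 7 of them shared. These 8 were the first 8 listed positions of the transcript. Of 3063 genes with at least 20 listed positions, 5.13% had as many WT positions before their first KO position. This pattern was chosen after its values were seen.

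Exon 2 of Dgcr8 contains the hairpin of a microRNA, miR-1306, at chr16:18284239-18284317. The Microprocessor is known to cut hairpins in the Dgcr8 mRNA itself, which lowers Dgcr8. The GGACA that Tombo and MINES listed in WT, without a KO call, lay inside this hairpin, 2 nt past the 3′ end of mature miR-1306-3p. In RefSeq (GRCm38.p6) the mature strand, shown to place the site, reads as follows, and its last base is the first base of the listed 5-mer.
miR-1306-3p: acguuggcucugguggugaug
The position belongs to exons of both Dgcr8 and the microRNA gene. Reads of the mRNA and of an uncut microRNA precursor cannot be told apart in the lists.

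Xpo5, on chr17:46202782-46243598, carried the best supported positions of the set. Its last exon, exon 32 of 1465 nt, held a GGACA 38 nt and a GGACT 22 nt before the stop codon, 16 nt from each other. The GGACA was listed in WT by Tombo, m6Anet, ELIGOS and Epinano and in the comparison by Nanocompore, and in KO by Tombo and xPore. The GGACT was listed in WT by Tombo, MINES, Nanom6A, m6Anet and xPore, and in KO by Tombo, MINES and m6Anet. The GGACT was the only position of the 8 genes that at least 3 tools listed in both libraries. The GGACA was the only one listed by Nanocompore, DiffErr or DRUMMER. xPore, which also uses a control sample, listed the GGACT in WT and the GGACA in KO. The GGACA and the GGACT were also the only 2 of 163 positions with 5 tools, where 3.28% of all WT or comparison positions had at least 5. Without the Tombo lists 0 positions had 5 tools, against 2.97% over the series, and without those of MINES, which takes its input from Tombo, 1 did.

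All 34 WT and all 24 KO positions of Xpo5 were in its coding sequence of 3612 nt. None of the 18 RRACH motifs in its 3′UTR of 1327 nt was listed in either library, and the last listed position of the transcript was a KO call of Tombo 4 nt before the stop codon. Among 3746 genes with at least 10 WT or comparison positions and 10 RRACH motifs in the 3′UTR, 0.881% had no WT or comparison position in the 3′UTR. Within the coding sequence, 49.3 of 100 RRACH motifs were listed in WT and 34.8 in KO. Xpo5 held 13 of the 14 m6Anet positions of the set in WT and 5 of 8 in KO. The single comparison list entry is read against 2.45% of all WT or comparison positions and 82.9% of genes with at least 5 listed positions that had no such entry. Thus 7 of the 8 genes lacked an entry, close to the share in the series.

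**Figure D2:**
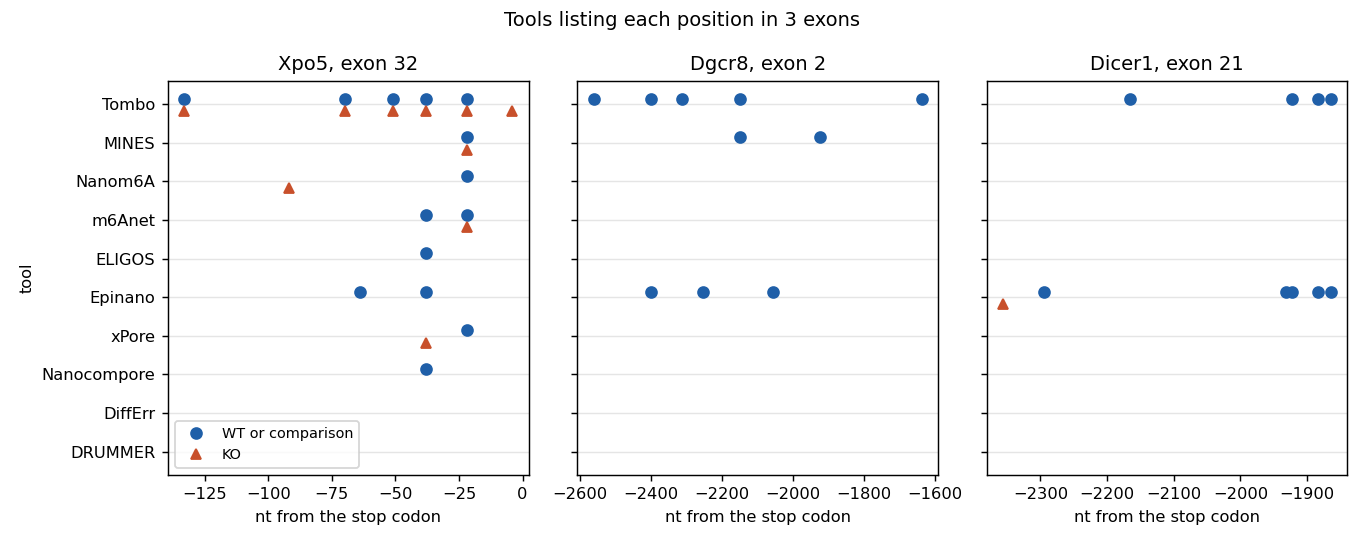
Tools (rows) that listed each position of 3 exons, by distance from the first base of the stop codon in nt; circles are WT or comparison listings and triangles KO listings. In Xpo5 exon 32 the columns at 38 and 22 nt before the stop codon hold 5 circles each, with 2 and 3 triangles, while Dgcr8 exon 2 has no triangle and Dicer1 exon 21 has 1.

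Dicer1, on chr12:104687742-104751952, encodes the enzyme that cuts the hairpins. Its WT positions were dense in 2 long internal exons of the coding sequence. Exon 21 (781 nt) had 6 WT positions and 1 KO position, with none shared, and exon 23 (871 nt) had 5 WT and 2 KO positions, with 1 shared. In exon 21 Tombo and Epinano both listed GGACT at nucleotides 4076, 4114 and 4134 of the transcript in WT, and no tool listed these in KO. A further Epinano call at nucleotide 4067 lay just upstream. Upstream of exon 19 WT had 4 positions and KO had 8, with 2 shared. All of these KO positions were Tombo calls except a MINES call at nucleotide 2145. The WT positions at nucleotides 752 and 1023 were Epinano calls, so without Tombo KO no longer had more there. The exons and the limit at exon 19 were chosen after the values were seen. Over the series, 44.9% of the WT positions in internal exons of at least 400 nt and 65% of those in shorter ones were also in KO.

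In the 3′UTR of Dicer1 (3851 nt) listing stopped early. Positions ran to 159 nt after the stop codon, with 5 in WT, 4 in KO and 3 in both. The remaining 3694 nt of the transcript held 46 RRACH motifs, and none was listed in either library. Whether the transcripts read in these cells end before that stretch was not tested.

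Ago1 and Ago2 encode Argonaute proteins, of which Ago2 can itself cleave a target. Ago1, on chr4:126435012-126468583, was listed only in its 3′UTR of 4491 nt, with 14 WT and 6 KO positions, 5 of them shared, and none among 36 coding RRACH motifs. Its best supported position, GGACT 1489 nt after the stop codon, had WT calls of Tombo, MINES and Epinano and a KO call of Epinano. Epinano also listed the GGACT 5 nt upstream, in WT only.

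Ago2, on chr15:73095844-73184935, had more KO than WT positions, 28 against 22, with 6 in both. The direction came from Tombo, with 13 WT and 24 KO positions, while Epinano had 11 and 3 and MINES 6 and 5. Without the Tombo lists it turned, to 17 WT and 9 KO positions. With all lists, the excess lay at the 5′ side. The first 12 listed positions, up to nucleotide 2365, were KO calls of Tombo, MINES or Epinano, and none of the 38 RRACH motifs there was listed in WT. Without Tombo, 4 KO positions were left there. From nucleotide 2366 to the end there were 22 WT and 16 KO positions among 149 motifs. By region, the coding sequence had 1 WT and 13 KO positions, and the 3′UTR of 11064 nt had 21 and 15. Of 3063 genes with at least 20 listed positions, 1.63% had as many KO positions before the first WT position. The pattern was chosen after its values were seen, and read numbers that would bear on it are not in the lists.

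Of the 21 WT and 15 KO positions in the 3′UTR of Ago2, 6 were shared. No position of either library lay between nucleotides 3470 and 8350, a stretch with 69 RRACH motifs. The best supported position, GGACA 6774 nt after the stop codon, was listed by Tombo, MINES and Epinano in WT and by Tombo and MINES in KO. A position 10586 nt after the stop codon was listed by Tombo and xPore in both libraries.

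Tnrc6a, on chr7:123123885-123195296, encodes a GW182 scaffold that recruits deadenylases to the silenced mRNA. It had 8 WT and 9 KO positions, 5 of them shared, all from nucleotide 3809 of 8183 onwards. Its GGACA in exon 17 (Tombo and MINES) and its GGACT in exon 24 (Tombo and Epinano) had WT calls only. With all lists, Ago2 and Tnrc6a were the 2 of 8 genes with more KO than WT or comparison positions, as were 26.3% of the genes with at least 5 listed positions in the series. Without Tombo neither was, since Tnrc6a then had 3 WT and 2 KO positions. Drosha was then the only such gene, with 14 WT and 15 KO positions, and the series share was 15.3%.

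**Figure D3:**
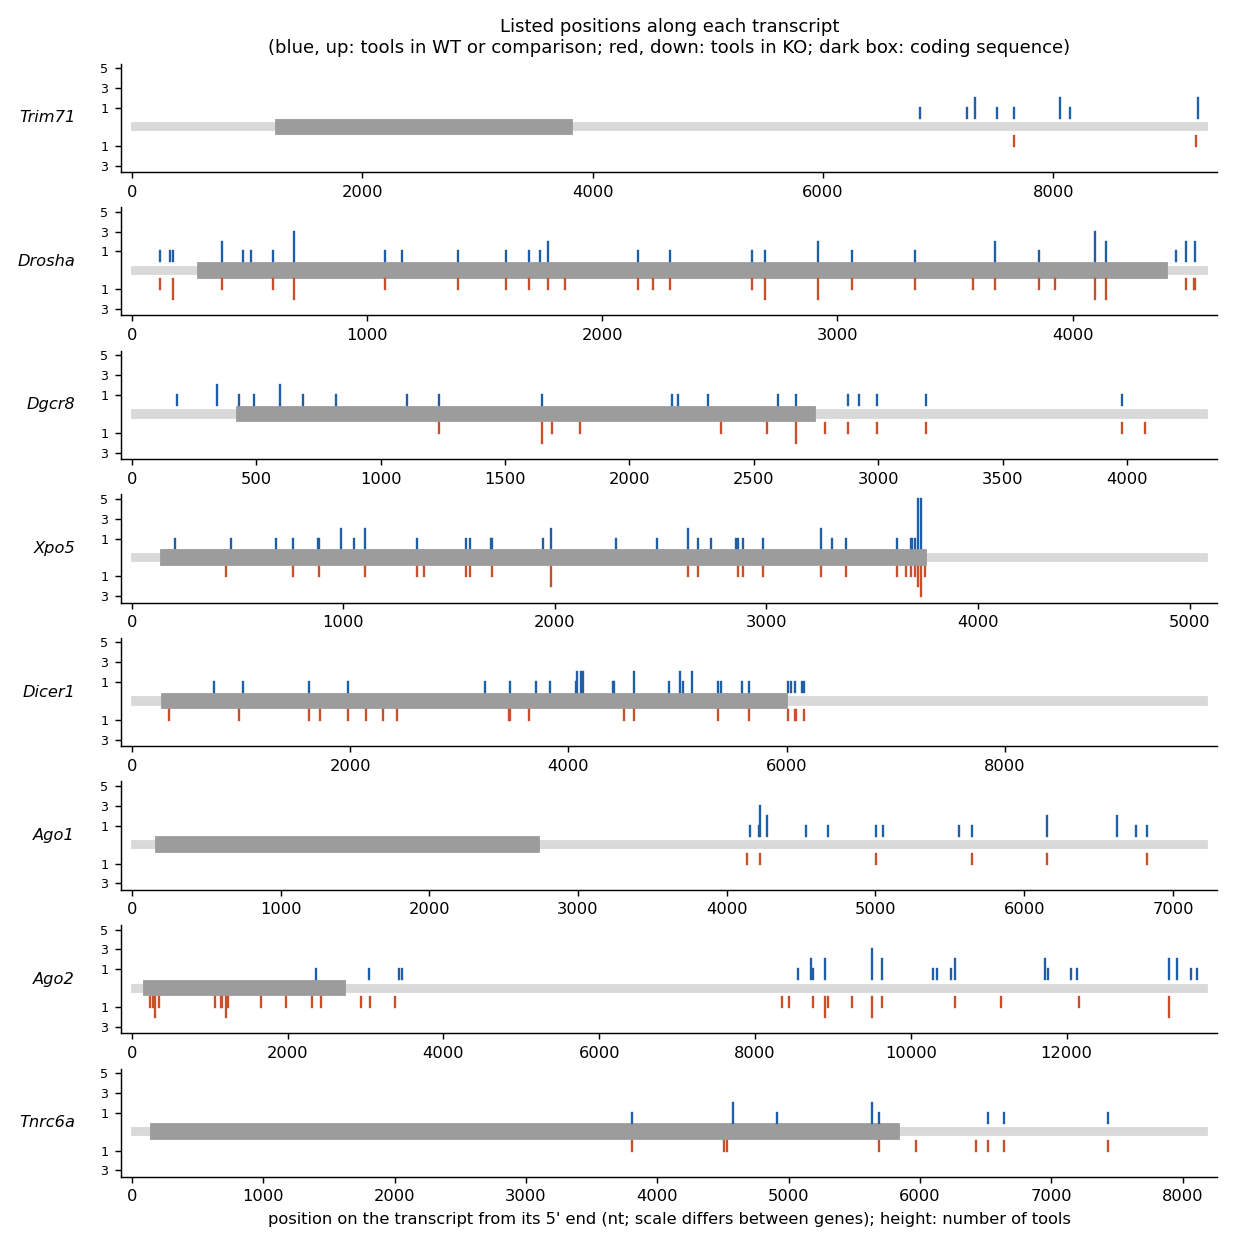
Listed positions along the transcript of each of the 8 genes, in nt from the 5′ end, on a scale of its own for each gene; the thick dark box is the coding sequence. Bars upwards count the tools with a WT or comparison call at the position, bars downwards those with a KO call. KO bars alone fill the first 2365 nt of Ago2, WT bars alone the first 8 positions of Dgcr8, and the 3′UTR of Xpo5 is empty.

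The counts and the overlap of the libraries are given by tool over the 8 genes. Tombo listed 108 positions in WT and 101 in KO. Its lists shared 62, which is 57.4% of the WT list (48.0 to 66.3%), where the share over the series was 59.7%. Epinano listed 64 in WT and 17 in KO, with 7 of the 64 (10.9%, 5.40 to 20.9%) in both, against 16.5% over the series. MINES had 18 and 11 positions, with 5 shared, and a share of 27.8% against 40.2%. The remaining lists were short: m6Anet had 14 in WT and 8 in KO, Nanom6A 5 and 6, xPore 2 and 3, ELIGOS 2 and 0, Nanocompore 1, and DiffErr and DRUMMER had 0 each. The shared positions were 4 for m6Anet (28.6% of its WT list, with 34.4% over the series), 2 for Nanom6A (65.4% over the series), 1 for xPore (24.9%) and 0 for ELIGOS (11.5%). Counted over the 7 tools with both lists, 81 of 213 WT listings (38%, 31.8 to 44.7%) were repeated by the same tool in KO, and 44.5% were over the series. Without Tombo, 19 of 105 (18.1%, 11.9 to 26.5%) were repeated, and 35.5% were over the series.

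Listings by m6Anet or Nanom6A were found in Drosha and Xpo5, and the other 6 genes had none. In the series, 42.9% of genes with at least 5 listed positions had no m6Anet entry, 46.8% had none of Nanom6A and 37.2% had none of either. Support was low in general. A single tool accounted for 122 of the 163 positions, and 41 (25.2%) had at least 2 tools, where 34.7% did over the series. At least 3 tools listed 6 positions (3.68%), against 12.6%. The most frequent pair was Tombo with Epinano, at 25 positions, which is 23.1% of the Tombo and 39.1% of the Epinano positions in WT. Tombo shared 14 positions with MINES, 77.8% of the MINES list.

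Higher support did not go with absence from the KO lists. All 6 positions with at least 3 tools were also listed in KO by some tool, as were 17 of 35 with 2 tools (48.6%) and 53 of 122 with 1 tool (43.4%). Over the series, these shares were 73.7% for at least 3 tools, 69.0% for 2 tools and 52.8% for 1 tool. In total, 76 of the 163 positions (46.6%, 39.1 to 54.3%) were listed in KO by any tool, below the 59.0% of the series. Conversely, 53 of the 129 KO positions were in no WT or comparison list, where 29.2% were over the series. Of the 53, 22 lay in Ago2 and 10 in Dicer1, and the other genes had at most 6 each. In Ago2, Tombo alone had 20 KO calls that its WT list lacked.

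The share also listed in KO ranged widely between the genes. With all lists it was lowest in Trim71, at 12.5% (2.24 to 47.1%, n = 8), and in Ago2, at 27.3% (13.2 to 48.2%, n = 22). Dicer1 with 32.1%, Dgcr8 with 35.0% and Ago1 with 35.7% lay above them, and their intervals overlapped with each other and with those of Trim71 and Ago2. Xpo5 reached 58.8% (42.2 to 73.6%, n = 34) and Tnrc6a 62.5% (30.6 to 86.3%, n = 8). With all lists, the interval of Drosha began above the upper ends of those of Trim71, Dgcr8, Dicer1, Ago1 and Ago2. This is no test between genes, since positions of a gene share reads. Without the Tombo lists Drosha had 57.1% (32.6 to 78.6%, n = 14). Its interval then began above that of Dicer1 alone (5.88%, 1.05 to 27.0%, n = 17). The other shares were 0% in Trim71 (n = 5) and Dgcr8 (n = 6), 11.1% in Ago1, 23.5% in Ago2, 31.8% in Xpo5 and 33.3% in Tnrc6a (n = 3).

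By kind of exon, the share also in KO was lowest in long internal exons. In internal exons of at least 400 nt, which are exon 4 of Drosha, exon 2 of Dgcr8 and exons 8, 21 and 23 of Dicer1 among those listed, there were 26 WT and 8 KO positions. Of the 26, 6 were also in KO (23.1%, 11 to 42.1%). The exons were not alike, since exon 4 of Drosha had 4 of its 6 WT positions in KO and the other exons together 2 of 20. In shorter internal exons there were 67 WT and 70 KO positions, and 38 of the 67 (56.7%, 44.8 to 67.9%) were also in KO. The order was the same over the series, at the shares given above for Dicer1. Last exons had 68 WT and 50 KO positions, with 45.6% of the 68 also in KO (34.3 to 57.3%), against 56.7% over the series, and this interval overlapped with that of long internal exons. The length limit was set after the values were seen. The kinds of exon also held different genes. Most WT positions in shorter internal exons were in Drosha and Xpo5, whose shares in KO over all exons were 79.3% and 58.8%. Xpo5 had no internal exon of at least 400 nt. Exon kind was thus not separated from gene.

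Pooled over the genes, distance to the nearest exon junction gave a similar picture. Within 100 nt of a junction lay 37.9% of the 87 positions listed in WT and not in KO (28.5 to 48.4%), and 61.8% of the 76 in both (50.6 to 71.9%). Positions listed in KO only were near a junction in 64.2% (50.7 to 75.7%, n = 53). RRACH motifs of the same transcripts were near a junction in 40.9%. In the series the same shares were 39.3%, 49.8% and 48.5%, with 44.4% of RRACH motifs. The pooled order did not hold within most genes. For positions not in KO and positions in both, the shares were 50% and 82.6% in Drosha and 36.8% and 55.6% in Dicer1. They were 100% and 95% in Xpo5, 46.2% and 42.9% in Dgcr8, 66.7% and 20% in Tnrc6a and 6.25% and 0% in Ago2. Drosha and Xpo5 supplied most shared positions near a junction, with 19 each.

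**Figure D4:**
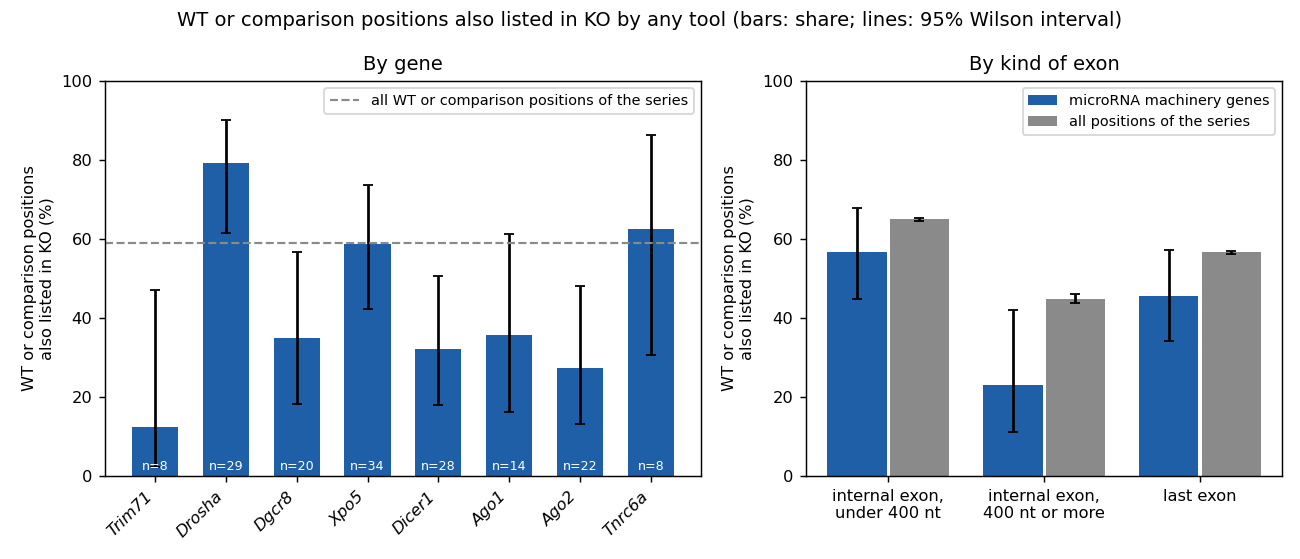
Share of WT or comparison positions that any tool also listed in KO, in percent with 95% Wilson intervals, by gene (left, dashed line at 59.0% for the series) and by kind of exon (right, microRNA machinery genes beside all positions). Drosha reaches 79.3%, Trim71 12.5%, and long internal exons of the 8 genes 23.1%.

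Positions near the stop codon, where m6A of mRNA is best known, were few. The 200 nt on either side of the stop codon held 19 of the 163 positions (11.7%, 7.59 to 17.5%), against 22.3% over the series. RRACH motifs were also rarer there, at 6.83% on these transcripts and 12.8% on those of the series. The share near the stop codon was 6.90% (3.20 to 14.2%) for the 87 positions listed in WT and not in KO, and 17.1% (10.3 to 27.1%) for the 76 in both. Positions listed in KO had a share of 15.5% (10.3 to 22.7%, n = 129). Over the series these shares were 20.8%, 23.4% and 20.9%. The coding sequence held 99 positions (60.7%) and the 3′UTR 59 (36.2%, 29.2 to 43.8%). The 3′UTR share was 45% for RRACH motifs on the same transcripts and 40.6% for WT or comparison positions of the series. Xpo5 and Ago2 pulled this share in opposite directions: it was 45.7% without Xpo5 and 27.0% without Ago2.

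By sequence, the most frequent 5-mer of the 163 positions was AGACA, with 33 positions, followed by GGACA with 25 and GGACT with 24. Listing was uneven over the motifs of the transcripts. Of all GGACT motifs there, 35.3% were listed in WT or comparison, against 46.8% on the transcripts of the series. The share listed was 34.7% for the motif AGACA, against 36.7%, and it was 27.8% for the motif GGACA, against 45% in the series. Lowest was the motif GAACA, at 7.06%, against 20% in the series, where the motif AAACC was lowest at 18.5%. The 4 motifs that nearly the whole MINES list consists of, GGACH and AGACT, made up 31.1% of the positions with 1 tool and 78.0% of those with at least 2. Over the series these shares were 31.7% and 64.9%. They were 32.6% of all RRACH motifs on the transcripts. All 6 positions with at least 3 tools were in GGACA or in GGACT contexts. MINES takes its input from Tombo and shared 14 positions with it, so part of the rise with support was fixed in advance. Shares without MINES were not computed.

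Because Lin28a acts on let-7, the transcripts were also searched for matches to let-7 and to miR-125, a family also known to target Lin28a. The mature strands from RefSeq (GRCm38.p6) are shown with bases 2 to 8, the seed, in capitals. A match was CTACCTC for let-7 and CTCAGGG for miR-125 on the sense strand of the transcript. Distances run from the listed adenine to the nearest base of the match.
mmu-let-7a-5p: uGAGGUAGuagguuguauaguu
mmu-miR-125a-5p: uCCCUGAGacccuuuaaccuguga
A let-7 match stood in the 3′UTR of 9.37% of all 10045 transcripts with listed positions, and a miR-125 match in 14.1%.

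Trim71 had 5 let-7 matches, 4 of them in the 3′UTR. The pair 168 and 264 nt after the stop codon lay 2851 and 2755 nt from the nearest listed position. The pair 3593 and 3619 nt after the stop codon lay between the GGACT that Tombo and MINES listed in WT, 88 nt away from the nearer match, and a Tombo call in WT, 68 nt away. Dicer1 had 4 matches, all in its coding sequence, and that at nucleotide 5370 began at the base after an adenine that Tombo listed in both libraries, so that the listed 5-mer shared its last 2 bases with the match. These matches are shown with 7 bases on either side, the match in capitals and with the GRCm38 coordinates of the match.
Trim71 let-7 match, chr9:114509048-114509054, minus strand: ggattttCTACCTCaattttg
Trim71 let-7 match, chr9:114509022-114509028, minus strand: aagttgtCTACCTCacgtcgg
Dicer1 let-7 match, chr12:104694697-104694703, minus strand: ttttggaCTACCTCataacca
Xpo5 had 2 coding matches, each 12 nt from a position that Tombo listed in both libraries. Ago2 had 3 matches in the 3′UTR, of which 1 lay 24 nt from a listed position. In Drosha, Dgcr8, Ago1 and Tnrc6a these letters did not occur.

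For miR-125 there were 9 matches, in Ago2, Tnrc6a, Dgcr8, Dicer1 and Trim71. Ago2 had a 3′UTR match 3 nt from an Epinano call in WT. In Tnrc6a a coding match ended at the base before an adenine that Tombo listed in WT, and shared 2 bases with its 5-mer. Dgcr8 had a coding match 17 nt from a position that Tombo listed in both libraries. The remaining 6 lay further off, between 114 nt (Dicer1) and 2938 nt (Trim71) from the nearest listed position. Taken over all 76 listed 3′UTR positions of the 8 genes, 1 (1.32%) lay within 50 nt of the centre of a let-7 match and 2 (2.63%) of a miR-125 match. Over the series the shares were 0.768% and 1.36%, so such neighbours were rare throughout.

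Other genes of the pathway were counted for context, from a list of 22 that holds the remaining Argonaute and Tnrc6 genes, Dicer partners, the let-7 regulators Lin28b, Tut4, Tut7 and Dis3l2, and helicases and RNA-binding proteins. WT or comparison positions were listed in 16 and KO positions in 19. More positions were listed in WT in 5 genes and in KO in 12. Restricted to the 18 genes with at least 5 positions, 11 had more in KO (61.1%), against 26.3% over the series. Without the Tombo lists it was 5 of 15 (33.3%), against 15.3%. With all lists, Tnrc6c (0 in WT, 10 in KO), Dis3l2 (1 and 9), Zswim8 (0 and 5) and Adar (8 and 18) leaned most to KO, and Tut7 (8 and 4) leaned to WT. Ago3, Ago4 and Tnrc6b had no listed position. Over the 22 genes 214 of 273 WT or comparison positions (78.4%) were also in KO, where the 8 genes described above had 46.6% and the series 59.0%. Most of the 214 were in Ddx5 (48), Hnrnpa2b1 (31), Mov10 (24), Fxr1 (23), Srsf3 (22) and Ran (15). A share without Tombo was not computed for the 22 genes. Ddx5, Srsf3, Hnrnpa2b1 and Ran were in comparison lists, and a position in Ran had the support of 9 tools.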

How the data were processed

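The authors basecalled the nanopore reads, aligned them to the GENCODE VM18 mouse transcriptome, ran each tool and converted the calls to GRCm38. They deposited 17 lists of positions, with no score, read number or coverage. Their methods state a minimum read number and a cut-off for each tool set by F1 scores against miCLIP and miCLIP2 sites, and the lists do not say whether that cut-off made them. Positions were counted here once per chromosome, base and strand. Genes, exons and stop codons came from GENCODE M21 of the same build. In each gene, the coding transcript that holds most listed positions was used. Column 4 named the same gene in 396 of 396 lines, all 216 positions were in RRACH, and transcript positions matched the annotation except in Xpo5, whose listed ones were 73 nt lower throughout. The member genes and lists were chosen with earlier results of these data known. Named positions were those with most tools in each gene, at most 3, and those listed in both libraries by at least 3 tools. Placement was tested on simulated transcripts. Python 3.11.15, numpy 2.4.6, scipy 1.17.1, pysam 0.24.0 and matplotlib 3.10.9 were used.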

Additional observations from a re-analysis of the deposited data

How the results depend on the processing

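No paired analysis was possible because each condition had 1 library and the lists carry no replicate numbers. Of 63 recomputed values, 54 stayed within 1.5 times the count or within the 95% interval of the share, and 9 moved. Some of the 54 could not change. Keeping only positions whose column 4 named the member gene left out none, since 396 of 396 lines did so. Without the Tombo lists, 93 positions were listed in WT or comparison, 44 in KO and 0 by at least 5 tools, and 18.1% of WT listings were repeated in KO. In an alternative chosen after seeing the data, the same lists were left out gene by gene. KO minus WT or comparison positions then went from 6 to -8 in Ago2, from 1 to -1 in Tnrc6a and from -1 to 1 in Drosha. The share also in KO went from 35.0% to 0% in Dgcr8 and from 32.1% to 5.88% in Dicer1. It went from 35.7% to 11.1% in Ago1 and from 58.8% to 31.8% in Xpo5, and stayed within its interval in Ago2 and Tnrc6a. With the count of pathway genes that had more in KO, 9 values of this alternative moved, 3 reversed and 5 stayed. Without the MINES lists, 1 position had at least 5 tools. Counted by any tool in KO, 46.6% were repeated. Within 100 nt of the stop codon lay 6.75%. The 3′UTR share was 45.7% without Xpo5 and 27.0% without Ago2. The cause of these shifts was not tested. Depth per position beyond the tools' minimum is unknown, so absence from a list does not show absence of m6A.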
